A study of Caenorhabditis elegans with 48 samples.

Results

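The sites described here are regions of the C. elegans genome bound by DPL-1 in L1 larvae, compared between the whole soma and the intestine. Peaks of 4 anti-GFP ChIP libraries were merged wherever they overlapped by at least 10 bp, which gave 8503 regions. A region was called a site of soma or of intestine when both replicates of that side had a peak in it. Of the regions, 2036 were sites of both (shared), 71 were sites of the soma with no peak in either intestinal library (soma only), and 200 were sites of the intestine with no peak in either soma library (intestine only). These 2307 sites are the members of the comparison. The other 6196 regions met none of the 3 definitions, and 4357 of them had a peak in a single library.

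DPL-1 is the only DP protein of C. elegans, the partner with which the E2F protein EFL-1 forms a DNA-binding heterodimer. The heterodimer recruits LIN-35, the worm Rb protein, and together with LIN-9, LIN-53, LIN-54 and other SynMuv B proteins they make up the DRM complex, which represses many germline and cell cycle genes in somatic cells. HPL-2, an HP1 protein, belongs to the heterochromatin proteins of the same SynMuv B class.

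The series holds 48 samples, ChIP and input DNA, from strains that express a tagged EFL-1, DPL-1, HPL-2 or LIN-35 protein from one of several promoters. The soma strain, YL425, carries an integrated transgene (vrIs69) of dpl-1 fused to GFP and FLAG under the dpl-1 promoter, which is active throughout the soma. The intestine strain, YL448, carries the same fusion (vrIs83) under the ges-1 promoter, which is active in the intestine. Both transgenes hold unc-119(+) and sit in an unc-119(ed3) III background, and each side rests on 1 integrated line with 2 biological replicates. Hatched larvae were starved to synchronize them and then fed for 6 h at 20°C, and chromatin came from whole animals. Because the dpl-1 promoter is also active in the intestine, the intestine is contained in the soma. Fewer bound cells and less binding per cell cannot be told apart in these lists. Both strains also keep their own untagged DPL-1. The tissue of each library rests on its labels, its promoter and GFP imaging. By that imaging, the paper reports the tagged proteins in nuclei of the intended tissues only. The amount of tagged protein was not measured in these lists.

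The deposited lists differed in length within each side as much as between sides. The soma libraries held 4140 peaks (replicate 1) and 3394 peaks (replicate 2) from 1.92 and 2.27 M (mega) ChIP reads. The intestinal libraries held 7556 peaks (replicate 1) and 2814 peaks (replicate 2) from 4.40 and 1.19 M reads. On the log2 scale the soma lists were shorter by a mean difference of -0.30 (exact permutation test, two-sided, p = 1.00, where 2 against 2 libraries cannot give less than 0.333). Without intestinal replicate 1 the difference was 0.41, with the soma lists the longer. Peaks were called in each library by PeakSeq, which sets the ChIP reads against the input and gives each peak a q-value, a false discovery rate, and the deposited q-values reach 0.01. Positions are given on WS180, a WormBase genome release.

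The sequences show what motif matches under intestine only sites look like beside those under shared sites. They were taken from the study's table of MEME motif matches, where a match lies inside a site. Shown are the 8 shared sites with the smallest larger q-value over the 4 libraries among those on chromosomes II to IV and X that hold a match, with the first match of each, and all 7 intestine only sites that hold one. Capitals mark the matched motif and small letters up to 4 flanking bases on each side, in the orientation of the motif.
rpb-11 (shared): aaaaCTATTTTTTAATTTTTCTTTggat
cdc-48.1 (shared): ataaAGCAACCGCGCCCTAACGTCAgaat
ddp-1 (shared): gATTTTTCCGGAAATTTCCCAgtat
pcn-1 (shared): aTTTTTCAACCAATTTGCCTCgaaa
dld-1 (shared): taggTTTTTATTGAGTTTTTTTTCagaa
Y94H6A.3 (shared): tacgGTGCTGGCGCGTTTCTCGCAcgcg
eelo-2 (shared): aaaaTGCAAGCGCGCTCCATTGACGcaga
fbxl-2 (shared): ccatTTGCTTGCGCATTTCCCGTGacga
madf-9 (intestine only): cgggTGCAGCGACGGACGAGAGGAGcggc
hlh-30 (intestine only): ctgtGAGAGAAAGAGATAGGGGCGGgcg
kin-20 (intestine only): gcctCACACACAGGGACAGGGACAGtcac
F17H10.2 (intestine only): gaGATAGAGTTGGAAAACAGGAGaatt
lido-13 (intestine only): cggcGGCGGAGGTGGGGAAGAGGAGgacg
chromosome II, 6888143 to 6889708 (intestine only): ctccGAAAGACTTTGAAGAAGTGGGgttg
chromosome X, 9264708 to 9264873 (intestine only): aaaaATGAAAAATGGAAAAAGGAACtctc

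All 7 matches in intestine only sites belong to 1 motif, which the table lists for its intestine-specific class. The matches of that class are not particular to these sites, since 34 shared sites hold one too. Of the shared sites with a match, 347 hold one of the non-specific class, as do the 8 shown, and 52 one of the soma-specific class. The word GCGC, the core of many E2F sites, occurs in 4 of the 8 shared examples and in none of the 7 others. The 7 belong to a motif that none of the 8 does, so motif and site class cannot be told apart here. Over all matches in shared sites that lie outside chromosomes I and V, 161 of 383 hold GCGC (42.0%), against 296 of 779 such matches over all regions and classes of the table (38%). The longer E2F type word TTNNCGC, where each N stands for C or G, occurs in 36 of the 383 (9.40%) and in 9.50% of all 779. Words were searched on both strands in the match and its flanks of up to 10 bases. TGATAA, the word that GATA factors of the intestine bind, occurs in 3 of the 383 (0.783%) and in none of the 7. Among all 779 matches it occurs in 30 (3.85%), so a count of 0 among 7 says little. A match was present at 434 of 1684 shared sites outside chromosome V (25.8%), at 7 of 156 intestine only sites (4.49%) and at none of 57 soma only sites. Among all 6927 regions outside chromosome V the share is 8.24%. The motifs were sought in classes defined partly by these same libraries, so the shares describe the table and are not compared by a test.

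Most sites of the soma and most sites of the intestine were shared. The soma libraries include the intestine, so a shared site is not shown to be bound outside it. Shared sites made up 23.9% of all regions, soma only sites 0.835% and intestine only sites 2.35%. Of the 2868 sites of the soma, 71% were shared (95% Wilson interval 69.3% to 72.6%), 2.48% were soma only (1.97% to 3.11%) and the other 761 had a peak in 1 intestinal library. Of the 2488 sites of the intestine, 81.8% were shared (80.3% to 83.3%), 8.04% were intestine only (7.03% to 9.17%) and 252 had a peak in 1 soma library. These intervals cover counting error over sites only. The most frequent pattern outside the 3 classes with more than 1 library was a peak in both soma libraries and in intestinal replicate 1, the longer list, with 745 regions.

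**Figure D1:**
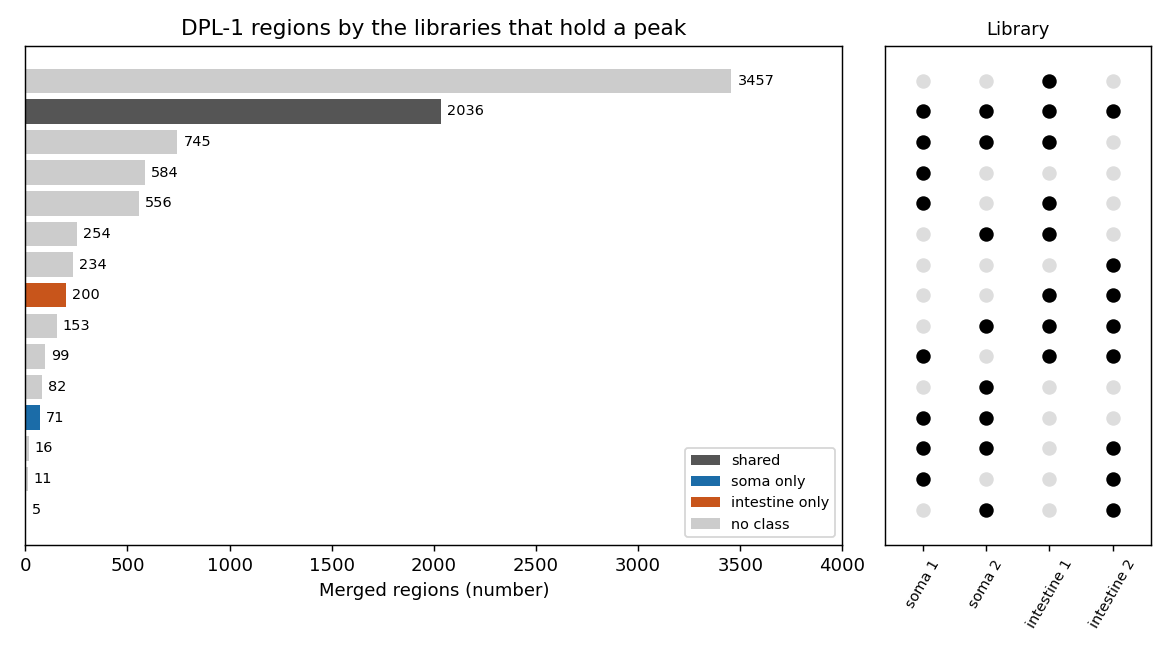
Number of merged DPL-1 regions (x axis) for each combination of the 4 libraries that hold a peak (filled dots at the right). Regions with a peak in intestinal replicate 1 alone are the most numerous, 3457, followed by the 2036 shared sites, while the soma only and intestine only bars reach 71 and 200.

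The number of private sites depended on single libraries and on the threshold. With sites called from 1 replicate on the side that lost a library, soma only sites numbered 156 without soma replicate 1, 655 without soma replicate 2 and 821 without intestinal replicate 1. Intestine only sites numbered 356 without soma replicate 2, 447 without intestinal replicate 1 and 3658 without intestinal replicate 2. With peaks of q below 1e-05 alone, 15 soma only and 16 intestine only sites were left beside 1200 shared sites. The overlap rule had little effect: at 1 bp in place of 10 bp the classes held 2035, 70 and 202 sites.

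Strong sites were shared and private sites were weak. Ranked by the larger q-value of both replicates, the first of 5 equal groups of soma sites held 567 shared sites of 574 and no soma only site. The last group, with q-values up to 0.00999, held 181 shared sites of 573 (31.6%) and 53 soma only sites (9.25%). In the intestine, 497 of the 498 sites of the first group were shared, and the last group held 253 shared (50.9%) and 128 intestine only sites (25.8%). The median q-value at shared sites was 1.00e-23 and 1.21e-18 in the soma libraries, and 2.11e-40 and 1.35e-07 in the intestinal ones. At soma only sites it was 6.19e-05 and 0.00224, and at intestine only sites 1.09e-07 and 0.00306, in replicates 1 and 2. These values come from the peaks that define the classes and are given as a description. Few private sites were flanks of a site of the other side: a peak of the other side lay within 1000 bp of 8 soma only sites (11.3%) and of 35 intestine only sites (17.5%).

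**Figure D2:**
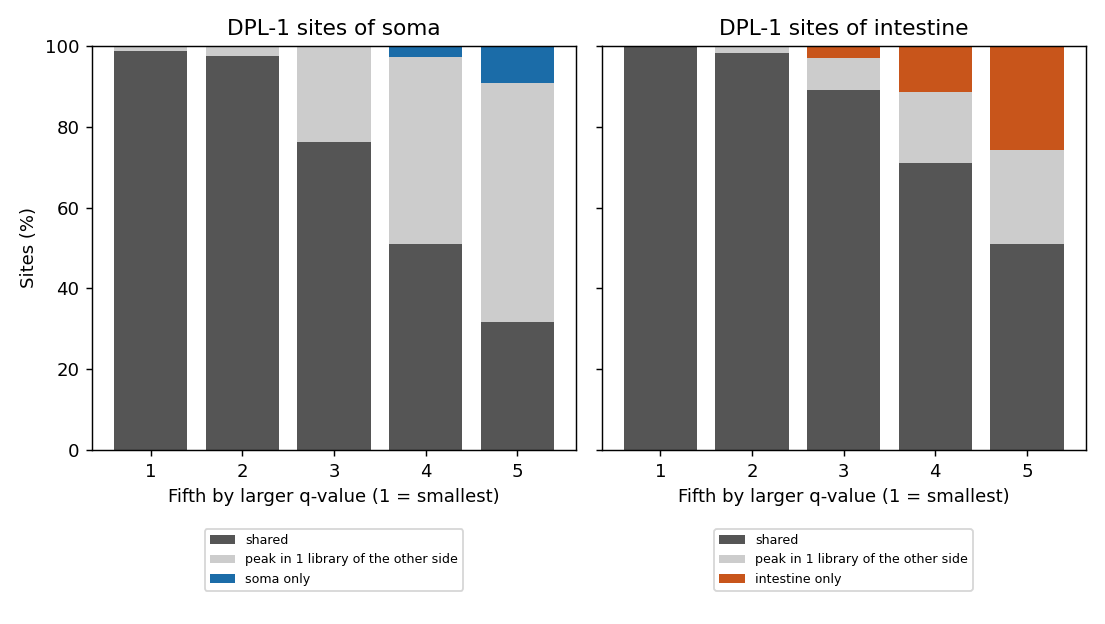
Share of DPL-1 sites (y axis, percent) that were shared, had a peak in 1 library of the other side or were private, for 5 equal groups of the soma sites (left) and intestinal sites (right) in the order of the larger q-value of both replicates. The shared part falls from 98.8% to 31.6% in the soma and from 99.8% to 50.9% in the intestine.

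Some of the strongest soma sites lacked a peak in intestinal replicate 1 alone. There were 16 regions with a peak in the other 3 libraries and none in this one, the most deeply sequenced, and in 7 of them the q-value was below 1e-05 in all 3. These 7 are the soma sites of the first group that were not shared. The first lay on chromosome IV (16414691 to 16416249) with q-values of 1.10e-253 and 3.49e-266 in soma and 1.20e-173 in intestinal replicate 2. The second lay on chromosome II (14251183 to 14252046) with 1.54e-238 and 3.63e-225 in soma and 2.17e-132 in intestinal replicate 2. At both of them all 4 intestinal libraries of EFL-1 and LIN-35, all 8 germline libraries and 3 of the 4 soma libraries had a peak, and EFL-1 soma replicate 2 had none. The third, at icd-2, which encodes a subunit of the nascent polypeptide-associated complex (chromosome I, 535194 to 537174), had 3.69e-144 and 1.06e-186 in soma and 4.90e-72 in intestine. The other 4 lay near the end of the same chromosome, from position 15013777 to 15036151. Why these peaks are not in the list was not tested, and a site missing from 1 list is therefore not shown to be unbound there.

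The strongest shared sites lay next to genes of general cell function. Genes were placed where a transcript start listed in the study's tables lay within 500 bp of the centre of a site, on chromosomes I to IV and X. The site of pcn-1, which encodes the replication clamp PCNA (chromosome IV, 4049345 to 4050154), had q-values of 1.95e-163 and 2.45e-166 in the soma libraries and 2.26e-203 and 2.21e-124 in the intestinal ones. The site of rpb-11, a subunit gene of RNA polymerase II (chromosome II, 14059610 to 14060317), had 7.89e-152 and 2.32e-148 in soma, and 3.39e-167 and 9.89e-136 in intestine. Both sides gave very small q-values at each of these loci. Among the 10 shared sites with the smallest values were also those of rbd-1, which acts in ribosome biogenesis, cdc-48.1, a gene of the AAA ATPase that extracts ubiquitinated proteins, and the ribosomal protein gene rpl-3. All 4 EFL-1 and LIN-35 libraries of the soma and all 4 of the intestine had a peak at each of these 10 sites.

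Genes of DNA replication were the list with the highest share at shared sites among lists with at least 5 placed genes. The tables place 3026 genes outside chromosome V, of which 1527 (50.5%) lay within 500 bp of a shared site. The tables were drawn from sites that the study found bound, so this background is high. Some of the study's classes were also defined partly by these same DPL-1 libraries. Its germline-specific sites exclude somatic DPL-1, and its broadly bound sites require intestinal DPL-1. The shares of all lists at shared sites are thus partly fixed by how the tables were built and are a description. Of 27 placed replication genes, 25 lay at a shared site (92.6%). At pri-2, the large primase subunit gene on chromosome I (12531801 to 12532781), the q-values were 1.42e-256 and 9.45e-213 in soma and 6.61e-266 and 7.84e-71 in intestine. In soma replicate 1 and intestinal replicate 1 this was the smallest q-value of the whole list. Others were mcm-4 and psf-3, subunit genes of the replicative helicase, orc-5 of the origin recognition complex, rfc-4 of the clamp loader, pola-1, a polymerase alpha subunit, and tim-1, the Timeless homologue. orc-4 had peaks in both soma libraries (q-values 4.59e-07 and 8.21e-04) and in intestinal replicate 1 (8.37e-08) but not in intestinal replicate 2, and belongs to no class.

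Of 47 placed genes of the cell cycle and mitosis list, 37 lay at a shared site (78.7%). The site of wee-1.3, the inhibitory kinase of CDK-1 (chromosome II, 9716329 to 9717086), had q-values of 1.57e-182 and 2.54e-152 in soma and 5.56e-167 and 8.86e-98 in intestine. The site between cyb-1, a B-type cyclin, and orc-5 (chromosome IV, 10734387 to 10735359) had 9.78e-144 and 1.61e-115 in soma and 9.48e-148 and 2.24e-68 in intestine. The spindle checkpoint gene mdf-2, the centriole gene sas-6, the cohesin gene scc-1 and the condensin gene hcp-6 also lay at shared sites. Of 11 placed apoptosis and DNA damage genes, 8 did so, among them rad-51 and brc-1 of homologous recombination and polh-1, a translesion polymerase. cep-1, the p53 homologue, had peaks in both soma libraries and in intestinal replicate 1 alone, with q-values of 4.24e-14, 0.00833 and 5.36e-08.

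Of 14 placed genes of the SynMuv and DRM list, 10 lay at a shared site (71.4%, against 50.5% of all placed genes). The other 13 of the 27 genes in this list were not placed, and of the 2 placed loci carried by the transgenes none lay at a shared site. lin-54, which encodes a DNA-binding DRM subunit (chromosome IV, 13240319 to 13240979), had q-values of 5.05e-121 and 5.07e-104 in soma and 8.15e-120 and 3.80e-65 in intestine. lin-9, another DRM subunit gene (chromosome III, 8903724 to 8904586), had 3.02e-104 and 1.90e-108 in soma and 2.12e-125 and 1.73e-54 in intestine. lin-35 itself lay at a shared site on chromosome I (5806555 to 5807919), with q-values of 1.39e-132, 4.11e-116, 3.33e-156 and 2.12e-22 in the same order. Of 5 placed MES and histone methylation genes, 4 were at a shared site: mes-2, the EZH2 homologue, mes-6, mrg-1 and set-2. met-1, the other one, had a peak in both soma libraries and in intestinal replicate 1 only.

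Genes of translation and of the endoplasmic reticulum stood above the background at shared sites, and germline, metabolic, neuronal and intestinal genes below it. Of 68 placed ribosome and translation genes, 59 lay at a shared site (86.8%), of 14 endoplasmic reticulum and unfolded protein response genes 12 (85.7%), and of 50 splicing and proteasome genes 32 (64%). The endoplasmic reticulum genes included ire-1, a sensor of unfolded protein, hsp-3, a BiP chaperone, and trap-1, trap-3 and trap-4 of the translocon. The ire-1 site (chromosome II, 8124830 to 8125209) had q-values of 2.75e-18 and 3.34e-11 in soma and 4.01e-25 and 5.18e-07 in intestine. Of 27 placed metabolism genes 9 lay at a shared site (33.3%), of 7 neuronal genes 2 and of 7 intestinal genes 1, erm-1, the ezrin homologue of the lumen. The single placed muscle gene, unc-45, was at a shared site, and the single placed epidermal gene was not. The neuronal, intestinal, muscle and epidermal lists hold 57, 49, 37 and 46 genes, so most of their genes were not placed. The shares cover only genes near sites that the study found. Only 4 of 35 placed germline and oogenesis genes were at a shared site (11.4%): rde-4 and mut-2 of RNA interference, nos-3 and skn-1. The study's germline-specific class excludes sites of somatic DPL-1, so a low share of germline genes is partly built into the tables. The rde-4 site (chromosome III, 10218250 to 10218946) had q-values of 5.30e-97 and 5.94e-39 in soma and 1.46e-74 and 1.09e-19 in intestine. Of other named genes, ncbp-2 and ulp-2 were also at shared sites, the small RNA pathway genes csr-1, wago-1 and ego-1 had no DPL-1 region within 500 bp, and pnp-1 and ymel-1 had a peak in 1 library of each side. mes-4, ppw-1, spn-4 and drh-3 were not placed here. No soma only site lay at a gene of any list, and 1 intestine only site did, at hlh-30.

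**Figure D3:**
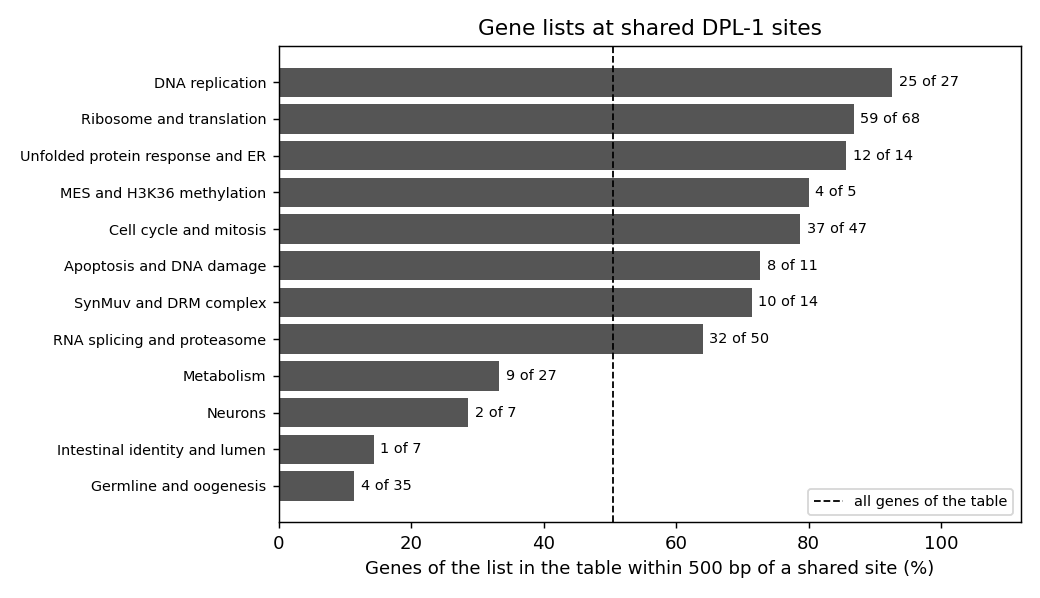
Share of the placed genes of each list that lay within 500 bp of a shared DPL-1 site (bars, percent, with counts), for lists with at least 5 placed genes, and the share over all placed genes (dashed line, 50.5%). Replication, ribosome and endoplasmic reticulum genes stand at 85.7% to 92.6%, and the intestinal and germline lists at 14.3% and 11.4%.

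Within the shared sites the order by q-value did not separate soma from intestine. Across the 2036 sites, Spearman's rho of q-values was 0.84 between the soma replicates and 0.89 between the intestinal replicates. Between sides it was 0.91 for soma replicate 2 with intestinal replicate 1, 0.89 for soma replicate 2 with intestinal replicate 2, and 0.83 and 0.77 for soma replicate 1 with intestinal replicates 1 and 2. The values are across sites of single libraries that differ in depth and are a description. In percentile ranks, 359 shared sites (17.6%) stood higher in both soma libraries than in both intestinal ones, and 373 (18.3%) stood higher in both intestinal libraries. Of the 6 arrangements of 2 against 2 libraries, 1 puts a given side on top. Both shares lie near the 1 in 6 that interchangeable libraries would give, so these sites are not shown to differ by tissue.

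**Figure D4:**
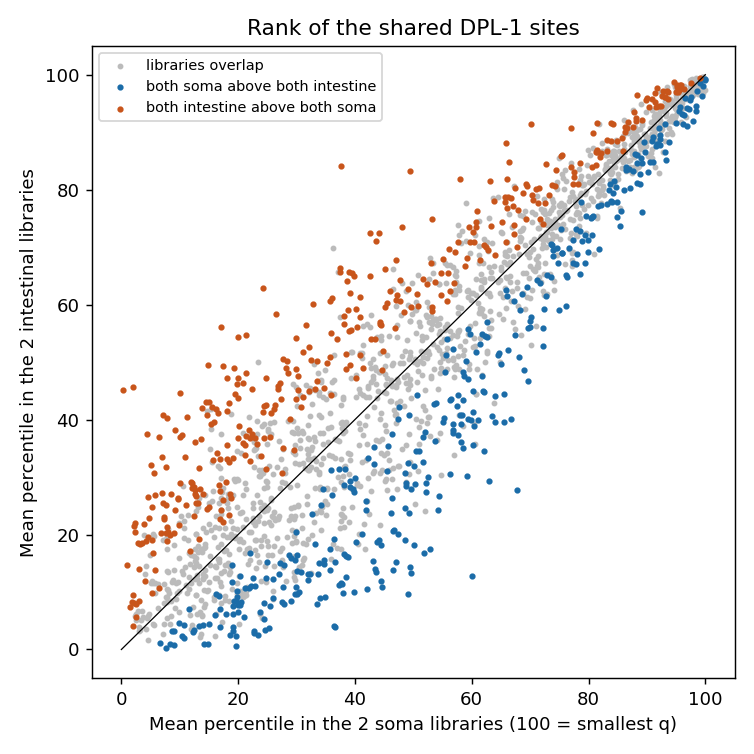
Mean percentile of each shared DPL-1 site by q-value in the 2 soma libraries (x axis) and the 2 intestinal libraries (y axis), where 100 is the smallest q-value. Blue points are the 359 sites with both soma libraries above both intestinal libraries, orange points are the 373 with the reverse order, and the strongest sites lie near the diagonal.

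The shared sites with the largest shift toward the intestine included very wide ones. A site on chromosome V (13380171 to 13380580) stood at percentiles 0.344 and 0.147 in soma and 48.7 and 41.6 in intestine, with q-values of 0.00820 and 0.00987 in soma and 7.08e-39 and 4.51e-06 in intestine. A site of 2868 bp on chromosome II (10444969 to 10447836) stood at 6.53 and 6.43 in soma and at 41.1 and 32.7 in intestine. A site of 3829 bp on chromosome V (13656179 to 13660007) stood at 31.6 and 43.5 in soma and at 99.8 and 68.5 in intestine. The largest shift toward the soma, at chromosome III (6289243 to 6289714), had a gap of 33.3 percentile points between the closest libraries of the sides, against 41.2 at the first of these. It went from 5.99 and 13.5 in intestine to 51.5 and 46.7 in soma. Among named genes, fbxa-128, an F-box gene, and rpn-6.1, a proteasome subunit gene, were next to sites that stood higher in the soma.

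Other libraries, which played no part in the ranking, differed between the ends of this order. Of the 100 shared sites shifted most toward the soma, EFL-1 soma replicate 1 had a peak at 71, and of the 100 shifted most toward the intestine at 18. LIN-35 intestine replicate 2 had a peak at 19 of the former and 74 of the latter. Over all 2036 shared sites EFL-1 soma replicate 1 had a peak at 62.0% and LIN-35 intestine replicate 2 at 57.7%. For EFL-1 soma replicate 1 the group shifted toward the soma was thus the closer to the share over all shared sites. The other intestinal libraries did not follow this order: EFL-1 replicate 3 had a peak at 47 and 26, EFL-1 replicate 2 at 58 and 60, and LIN-35 replicate 1 at 97 and 92. Over all shared sites they had a peak at 53.6%, 76.3% and 98.2%, in the same order. HPL-2, which was assayed in the intestine only, had a peak at 72, 10 and 33 of the sites shifted toward the soma in replicates 1, 2 and 3, and at 95, 61 and 80 of those shifted toward the intestine. Its replicates had a peak at 89.4%, 32.2% and 53.2% of all shared sites. The remaining EFL-1 and LIN-35 libraries of the soma had peaks at 84 to 100 sites of either group, and at 87.8% to 99.0% of all shared sites. The median width was 451.5 bp in the group shifted toward the soma and 669.5 bp in the other, against 528.5 bp over all shared sites.

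Private sites held peaks of LIN-35 and EFL-1 less often than shared sites in each of the 8 libraries. Soma only sites held them mainly in the soma libraries with long lists. These libraries come from other strains and did not define the classes. In the soma the lists of EFL-1 replicates 1 and 2 and LIN-35 replicates 1 and 2 held 1588, 4540, 5097 and 5918 peaks. In the intestine those of EFL-1 replicates 2 and 3 and LIN-35 replicates 1 and 2 held 1988, 1249, 7283 and 2125. The shorter lists of either side had few peaks at soma only sites. Of the 71 soma only sites, EFL-1 soma replicates 1 and 2 had a peak at 5 and 54, and LIN-35 soma replicates 1 and 2 at 32 and 46. EFL-1 intestine replicates 2 and 3 had a peak at 1 site each, LIN-35 intestine replicate 1 at 15 and LIN-35 intestine replicate 2 at none, which allows a share of up to 4.23% by a limit of 3 counts and 5.13% by the Wilson interval. These counts were lower in every intestinal library than in EFL-1 soma replicate 2 and both LIN-35 soma libraries. Of the 200 intestine only sites, EFL-1 intestine replicates 2 and 3 had a peak at 25 and 3, and LIN-35 intestine replicates 1 and 2 at 172 and 73. EFL-1 soma replicates 1 and 2 had a peak at 0 and 66 of them, where 0 allows up to 1.5% by 3 counts and 1.88% by the Wilson interval, and LIN-35 soma replicates 1 and 2 at 70 and 107. At shared sites the 8 libraries had a peak at 53.6% to 99.0%. More libraries of the soma than of the intestine had a peak at 59 of the 71 soma only sites, and the reverse held at 2. At the 200 intestine only sites more intestinal libraries had a peak at 86, more soma libraries at 66, and equal numbers at 48.

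The log2 odds of a peak at soma only over intestine only sites were 2.24 ± 2.1 (SD, n = 4) in the EFL-1 and LIN-35 libraries of the soma and -3.33 ± 2.81 (SD, n = 4) in those of the intestine. The values were 5.05, 2.66, 0.61 and 0.67 in EFL-1 soma replicates 1 and 2 and LIN-35 soma replicates 1 and 2. In the intestine they were -2.77 and 0.26 in EFL-1 replicates 2 and 3, and -4.46 and -6.37 in LIN-35 replicates 1 and 2. The 5.05 rests on a count of 0 of 200 intestine only sites, and the -6.37 on 0 of 71 soma only sites. The size of both is largely set by the 0.5 added to each cell. EFL-1 intestine replicates 2 and 3 each had a peak at 1 soma only site. These counts also enter the pairs with shared sites, so the sizes of all differences are imprecise. For soma only over intestine only sites, every soma library stood above every intestinal one, with EFL-1 intestine replicate 3 close to the LIN-35 soma libraries. The difference was 5.58 (exact permutation test over libraries, two-sided, p = 0.0286, adjusted over 3 pairs of classes p = 0.0429, where 0.0286 is the smallest p that 4 against 4 libraries can give). For soma only over shared sites the difference was 3.14 (exact permutation test, adjusted p = 0.0429), with -3.91 ± 0.89 in soma and -7.05 ± 0.88 in intestine. For intestine only over shared sites it was -2.44 (exact permutation test, adjusted p = 0.200), with -6.15 ± 2.79 in soma and -3.72 ± 2.03 in intestine. These SDs mix both factors. Within EFL-1 the intestinal libraries stood at -4.47 and -6.03 and the soma libraries at -9.35 and -7.64, and within LIN-35 at -3.14 and -1.24 against -3.74 and -3.90. Each factor's intestinal libraries thus lay above its soma libraries. When libraries were permuted within factor, each of the 3 pairs had p = 0.0556 (exact permutation test), the smallest that this scheme can give.

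The calls of the first and second pair stand at the limit of what this number of libraries can show, and permutation within factor cannot pass the threshold for any pair. Without any 1 of the 4 soma libraries the adjusted p of both pairs was 0.0857, with differences of 4.64 without EFL-1 soma replicate 1, 5.44 without EFL-1 soma replicate 2, 6.12 without LIN-35 soma replicate 1 and 6.11 without LIN-35 soma replicate 2 for the first pair. For the second pair they were 3.27, 3.5, 2.88 and 2.92. Without DPL-1 intestine replicate 1 the differences were 2.54 and 1.18 (exact permutation test, adjusted p = 0.0857 for both), and without DPL-1 intestine replicate 2 they were 3.46 and 1.42 (adjusted p = 0.171 for both). Without DPL-1 soma replicate 1 the differences were 3.12, 2.21 and -0.91 for the 3 pairs, and the first and second pair still passed (exact permutation test, adjusted p = 0.0429). Without EFL-1 soma replicate 1 the third difference was -1.37, and without LIN-35 intestine replicate 2 it was -1.61 (exact permutation test, adjusted p = 0.400 for both). With peaks of q below 0.001 alone the differences of the first and second pair were 3.95 and 2.07 (exact permutation test, adjusted p = 0.214 for both).

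**Figure D5:**
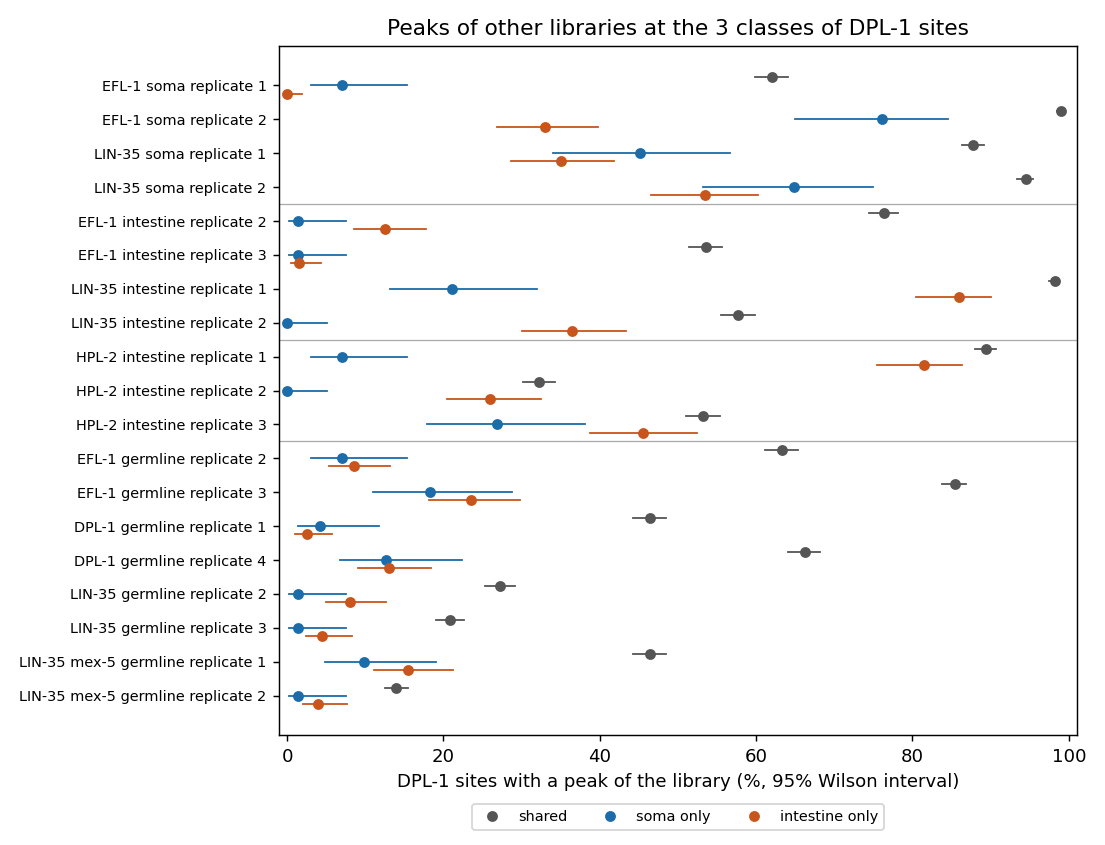
Share of shared, soma only and intestine only DPL-1 sites with a peak in each other library (x axis, percent; points with 95% Wilson intervals for counting error). In the 4 intestinal EFL-1 and LIN-35 libraries the soma only sites stand at 0% to 21.1%, while LIN-35 intestine replicate 1 had a peak at 172 of the 200 intestine only sites.

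HPL-2 peaks were more frequent at intestine only than at soma only sites, while germline DPL-1 peaks had close shares in both. HPL-2 intestine replicates 1 and 2 had a peak at 163 and 52 of the 200 intestine only sites (81.5% and 26%), and at 5 and 0 of the 71 soma only sites. In replicate 3 the shares were closer, with 91 of the intestine only sites (45.5%) and 19 of the soma only sites (26.8%). Replicate 3 has no input sample in the series. At shared sites replicates 1, 2 and 3 had a peak at 89.4%, 32.2% and 53.2%. DPL-1 expressed from the pie-1 promoter in the germline of young adults had a peak in at least 1 replicate at 1428 shared sites (70.1%), at 10 soma only sites (14.1%) and at 29 intestine only sites (14.5%). The germline libraries differ from the others in stage as well as tissue. At the 745 regions with peaks in both soma libraries and intestinal replicate 1, the libraries differed widely. EFL-1 soma replicates 1 and 2 had a peak at 18.4% and 93.8% of them, and LIN-35 soma replicates 1 and 2 at 54.1% and 75.6%. EFL-1 intestine replicates 2 and 3 had a peak at 15.6% and 5.91%, and LIN-35 intestine replicates 1 and 2 at 85.5% and 10.1%.

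Intestine only sites were frequent on the X chromosome and rare on chromosome I. On the X lay 41 of the 200 intestine only sites (20.5%, interval 15.5% to 26.6%), 186 of the 2036 shared sites (9.14%, interval 7.96% to 10.5%) and 3 of the 71 soma only sites (4.23%, interval 1.45% to 11.7%). Of all regions, 15.1% lay on the X, as did 10.8% to 14.9% of the peaks of each of the 4 libraries. The share of intestine only sites on the X was 18.6% to 22.8% with each library left out in turn. Without soma replicate 1 the share of soma only sites on the X was 14.1%, and without soma replicate 2 it was 12.5%. Chromosome I held 4.50% of intestine only sites, 11.3% of soma only sites and 16.1% of shared sites, against 17.6% of all regions. Sites are not replicates, and these shares were not tested.

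The strongest soma only site lay at the right end of chromosome I (15052512 to 15053044), with q-values of 5.34e-105 and 8.57e-16 in soma replicates 1 and 2. All 4 EFL-1 and LIN-35 libraries of the soma and 1 of the intestine had a peak there. Intestinal DPL-1 replicate 1 lists no peak on chromosome I beyond position 14994766, and neither do LIN-35 intestine replicate 1 (14994860 with the end of its last peak), HPL-2 intestine replicate 3 or EFL-1 germline replicate 3, while intestinal DPL-1 replicate 2 lists 5 peaks beyond it, none at this site. Whether the lists are complete at this chromosome end was not tested. The next sites, on chromosome II (1323175 to 1323595), had q-values of 4.47e-16 and 3.35e-10, and on chromosome V (14124236 to 14124505) of 1.11e-07 and 9.75e-07. No gene was placed at the 10 strongest, of which 2 lie on chromosome V, where none could be.

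At 6 of the 57 soma only sites outside chromosome V a gene was placed, which is 0.198% of the placed genes. These genes were chosen because no others were placed, and they fall outside the rule for naming genes. cccp-1, which acts in dense core vesicle biogenesis (chromosome III, 12472420 to 12472750), had q-values of 1.59e-04 and 0.00196. snt-4, a synaptotagmin gene (chromosome I, 6435663 to 6436254), had 1.88e-06 and 0.00592, and rabn-5, the rabaptin-5 homologue (chromosome III, 5864225 to 5864580), had 2.41e-16 and 0.00853. sql-1, a golgin gene, ZK1098.2 and tmed-12, a p24 family gene, were the others. In soma replicate 2 the q-value of 5 of the 6 was above 0.001.

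Many of the genes placed at intestine only sites were genes of small non-coding RNAs. A gene was placed at 24 of the 156 intestine only sites outside chromosome V, 24 genes in all, which is 0.793% of the placed genes. Of these genes, 7 were tRNA genes and 4 were snoRNA genes. Among all placed genes tRNA and snoRNA genes made up 5.98% (181 of 3026), among the 1527 genes at shared sites they numbered 65, and none of the 6 genes at soma only sites was one. The tables are held only in part and come from sites bound in other lists of the study, so these counts describe the placed genes. tRNA genes are short, repeated in the genome and transcribed by RNA polymerase III, and how reads that match several copies were treated is not stated in the sources that were used.

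The snoRNA gene C07A9.14 (chromosome III, 9717095 to 9717425) had q-values of 4.03e-10 and 7.09e-06 in intestinal replicates 1 and 2. K07C10.2 (chromosome II, 11166985 to 11167397) had 1.82e-11 and 1.70e-05, and Y67A10A.14 (chromosome IV, 14326979 to 14327376) had 4.87e-22 and 3.70e-05. These 3 are among the 10 strongest intestine only sites. At each of them 2 or 3 of the soma libraries of EFL-1 and LIN-35 had a peak, and 4 or 5 of the 8 germline libraries. The fourth, C05H8.3 (chromosome III, 5653804 to 5654000), had 1.51e-06 and 0.00484. The q-values of the tRNA genes in replicate 2 ran from 3.08e-04 at Y22D7AL.t3 (chromosome III, 1604605 to 1604880) to 0.00759 at ZK899.t1 (chromosome X, 9467598 to 9467932).

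Among intestine only sites at other genes, hlh-30, which encodes the TFEB homologue, a regulator of lysosome and lipid genes, is the one member of the intestinal list. Its site (chromosome IV, 4028122 to 4028639), which holds one of the matches shown, had q-values of 1.03e-18 and 1.05e-04, and 3 soma libraries and 3 intestinal libraries of EFL-1 and LIN-35 had a peak there. madf-9, a gene of the MADF domain family (chromosome IV, 3636439 to 3636869), had 4.79e-12 and 3.14e-07. kin-20, a casein kinase I homologue (chromosome X, 15273699 to 15274415), had 2.19e-10 and 0.00194, and nhr-97, a nuclear hormone receptor gene (chromosome IV, 9757070 to 9757399), had 1.26e-06 and 0.00470. pmt-1, a phosphoethanolamine methyltransferase gene (chromosome II, 5282234 to 5282508), had 8.62e-07 and 0.00693, and none of the 4 soma libraries had a peak there. Apart from madf-9 and hlh-30 these genes were chosen after their values were seen.

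Several of the strongest intestine only sites without a placed gene were wide. The site with the smallest larger q-value lay on chromosome V (13081020 to 13081982) with 1.33e-40 and 2.21e-07. A site of 2760 bp on the X (6253190 to 6255949) had 6.87e-49 and 4.75e-05, and all 3 HPL-2 libraries, 3 soma libraries and 3 intestinal libraries had a peak in it. A site on chromosome IV (7505784 to 7506675) had 2.48e-17 and 1.46e-06, and there all 4 intestinal libraries of EFL-1 and LIN-35 and all 3 HPL-2 libraries had a peak and no soma library did. The median width of all intestine only sites was 350.0 bp, close to the 359.0 bp of the soma only sites.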

How the data were processed

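Per library, PeakSeq was run by the authors against input DNA on WS180, and each deposited peak has a start, an end and a q-value. HPL-2 intestine replicate 3 has no input sample in the series and is absent from the study's table of reads. Which input it was set against is not known. No source used here names an aligner. Intestinal replicate 1 and soma replicate 2 combine sequencing runs. Read totals came from the study's table of reads. All deposited peaks were used and joined where they overlapped by at least 10 bp. Peaks under 10 bp (9, 8, 171 and 19 in soma replicates 1 and 2 and intestinal replicates 1 and 2) cannot reach that overlap and stayed regions of their own. Peak presence of EFL-1 and LIN-35 was compared as log2 odds, with 0.5 added to each cell, by exact permutation over libraries with Benjamini-Hochberg adjustment over 3 pairs. Replicates are the authors' biological replicates, and depth limits which weak peaks were called.

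Genes came from the transcript starts printed in the study's tables (3656 models, 3624 genes), which are held in part. RefSeq (WBcel235) supplied symbols for 3346 models (91.5%) and no coordinates. Table positions lay a median of 0 to 0.750 bp from the deposited peaks in size on chromosomes I to IV and X and 170 bp on chromosome V, which was left out and not converted. Genes were named at the 10 strongest sites of every class, then by list (at most 8 members for each class, strongest first), and for soma or intestine binding in the paper. Others, such as those at shifted or motif-holding sites, at private sites below the first 10, and orc-4, cep-1, met-1 and icd-2, were chosen after their values were seen. Members, classes and gene lists were chosen with earlier results of these data known. Alternatives were other q-values, overlaps, merging and absence rules, list lengths, libraries, windows and scales. Leaving out chromosome I and cutting the EFL-1 and LIN-35 lists to 1 length were added after seeing the data. The steps were tested on simulated data. Python 3.11.15 with numpy 2.4.6, pandas 2.3.3 and scipy 1.17.1 was used.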

Additional observations from a re-analysis of the deposited data

Results flagged for a closer look

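The difference between soma and intestinal libraries of EFL-1 and LIN-35 was itself tested for each pair of classes and passed for 2 of them. The difference in log2 odds was 5.58 for soma only over intestine only sites and 3.14 for soma only over shared sites (exact permutation test, adjusted p = 0.0429 for both). Some of these odds rest on counts of 0 or 1 sites, so the sizes of both differences are imprecise. Of 12 groups of 4 libraries checked for a library far from the rest, 1 stood out: LIN-35 intestine replicate 1 had a peak at 21.1% of the soma only sites, and the other 3 intestinal libraries at 0% to 1.41%. It has the longest list of the 4, with 7283 peaks, and the part of list length in this share was not tested. Chance marks about 1 group in 20. HPL-2 intestine replicate 3, which entered no test, had a peak at 19 of the 71 soma only sites (26.8%), where HPL-2 replicates 1 and 2 had 5 and 0. Replicate 3 has no input sample in the series and is absent from the study's table of reads. A count of 0 of 71 allows a share of up to 4.23% by a limit of 3 counts and 5.13% by the Wilson interval.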

How the results depend on the processing

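The share of intestine only sites on the X was 16.7% to 23.5%, and the third pair of classes kept its direction, under every alternative run. The third pair also stayed above the threshold, but permutation within factor could not have gone below it, and there the pair reached the smallest possible p (0.0556), as did the others. At q below 0.001 the soma only and intestine only counts were 33 and 81, the X share of shared sites was 7.5%, and the differences of the first and second pair were 3.95 and 2.07. At q below 1e-05 the classes held 1200, 15 and 16 sites, the X shares of shared and soma only sites were 5.25% and 0%, and the differences were 3.51 and 1.62. With a site counted as absent unless both replicates had it, 832 soma only and 452 intestine only sites were counted, with differences of 2.57 and 1.15. With 1 replicate enough, the counts were 3875, 737 and 3891, the X shares of shared and soma only sites 11.4% and 13.7%, and the differences 4.02 and 2.76. With the 4 lists cut to the shortest, 171 soma only and 120 intestine only sites were left, with 7.20% of shared sites on the X and differences of 4.65 and 1.65. Without chromosome I, 10.9% of shared sites were on the X. The pair differences lost their call at 5.58 and 3.14 when libraries were permuted within factor, where 0.0556 is the smallest p, at 46 and 27.86 percentage points as differences of shares, and at 5.73 and 2.39 with the 8 lists cut to the shortest. With each library left out in turn, the counts ranged from 2053 to 2781 shared, 87 to 821 soma only and 300 to 3658 intestine only sites. The X share of soma only sites ranged from 3.45% to 14.1% and of shared sites from 9.06% to 9.69%. The pair differences ranged from 2.54 to 6.78, 1.18 to 3.57 and -3.24 to -0.91. Leaving out 1 library from a side relaxes the requirement of both replicates by construction, and the cause of the other changes was not tested. The difference in list length ranged from -1.01 to 0.41 and reversed to 0.41 without intestinal replicate 1. With the replicate number as a block it was -0.30 (exact permutation test, p = 1.00). The samples share only a number, and the correlation of replicate differences in rank between sides was 0.12 over 2036 shared sites. Within 2000 bp, 23 genes lay at soma only and 52 at intestine only sites, and tRNA and snoRNA genes numbered 12 at the latter. Promoter motifs were not run, since no promoter sequences were used here.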
